A study of Mus musculus with 15 samples.

Results

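The platelet-derived growth factor (PDGF) family was followed through kidney and lung RNA of mice in which the hormone leptin had been neutralized during fibrotic injury. Its members were chosen by name: the 4 ligand genes *Pdgfa*, *Pdgfb*, *Pdgfc* and *Pdgfd* and the 2 receptor genes *Pdgfra* and *Pdgfrb*, which are 6 of the 56748 genes in the deposited table. All mice were wild type, and the study's methods describe them as male C57Bl/6, aged 10 to 12 weeks in the kidney model and 12 weeks in the lung model. WTK kidneys came from mice given vehicle. IgGK and LepK kidneys came from mice given folic acid at 200 mg/kg, which crystallizes in and damages kidney tubules, and then control IgG (IgGK) or LepAb, a human antibody that neutralizes leptin (LepK), at 10 mg/kg, the dose the study's text settled on after trying several. Kidneys were taken on day 28. IgGL and LepL lungs came from mice given bleomycin, a DNA-damaging drug that scars the lung, at 1.5 units/kg, and then control IgG (IgGL) or LepAb (LepL) at 10 mg/kg. Lungs were taken on day 14, and no lung without bleomycin was analysed here. By the study's methods the antibodies were injected every other day. That course ended before day 28 in the kidney model and lasted until sampling on day 14 in the lung model. Each group had 3 libraries of poly(A) RNA, and nothing in the labels says that an antibody was given to WTK mice. The labels number the replicates without naming an animal for each, while the study counts its lung libraries as mice, and the p-values measure the spread between the libraries as deposited.

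PDGF ligands are dimeric growth factors, and the products of *Pdgfa* and *Pdgfb* are secreted ready to act once they have been cut inside the cell. The products of *Pdgfc* and *Pdgfd* are secreted with an extra domain that proteases outside the cell must remove. PDGF-A and PDGF-C act chiefly through the receptor encoded by *Pdgfra*, PDGF-D chiefly through that encoded by *Pdgfrb*, and PDGF-B through both. Both receptors are tyrosine kinases of mesenchymal cells. *Pdgfra* is typical of fibroblasts, and *Pdgfrb* is typical of pericytes, mesangial cells and also fibroblasts, the cells that multiply and lay down matrix in a scarred kidney or lung.

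Promoter sequences of RefSeq (GRCm38.p6, a different build from that of the table), running from 250 bases before to 50 bases after an annotated start, were matched by symbol for 4 of the 6 genes, *Pdgfa*, *Pdgfc*, *Pdgfd* and *Pdgfra*. One start of each is shown. In the results that follow, *Pdgfa* and *Pdgfra* rose together in the injured kidney. *Pdgfc* and *Pdgfd* were not called there, nor in the lung, where their log2 fold changes had opposite signs. A link between these sequences and the changes was not tested. Of the 2 *Pdgfa* starts listed, the one farther upstream is given. The regions are chr5:138994895-138995194 (minus strand) for *Pdgfa*, chr5:75152001-75152300 (plus strand) for *Pdgfra*, chr3:81036166-81036465 (plus strand) for *Pdgfc* and chr9:6168236-6168535 (plus strand) for *Pdgfd*. Capitals mark every match, on either strand, to the 8 motifs searched.
Pdgfa: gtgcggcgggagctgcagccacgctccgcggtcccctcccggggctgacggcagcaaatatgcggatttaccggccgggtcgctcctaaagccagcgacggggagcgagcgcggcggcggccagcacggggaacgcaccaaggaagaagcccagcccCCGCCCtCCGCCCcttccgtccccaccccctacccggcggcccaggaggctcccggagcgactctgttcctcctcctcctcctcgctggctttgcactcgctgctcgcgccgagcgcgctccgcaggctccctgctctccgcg
Pdgfra: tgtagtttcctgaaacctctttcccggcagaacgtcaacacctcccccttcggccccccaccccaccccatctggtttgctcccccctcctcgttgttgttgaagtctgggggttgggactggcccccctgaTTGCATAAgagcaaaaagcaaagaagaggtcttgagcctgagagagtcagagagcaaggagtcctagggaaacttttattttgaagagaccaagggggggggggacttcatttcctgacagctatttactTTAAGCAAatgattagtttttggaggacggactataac
Pdgfc: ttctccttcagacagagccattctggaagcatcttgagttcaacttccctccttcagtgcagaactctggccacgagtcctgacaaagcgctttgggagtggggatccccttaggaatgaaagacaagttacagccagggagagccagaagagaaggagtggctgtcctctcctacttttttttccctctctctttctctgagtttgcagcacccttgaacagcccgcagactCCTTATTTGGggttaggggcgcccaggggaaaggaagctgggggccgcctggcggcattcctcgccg
Pdgfd: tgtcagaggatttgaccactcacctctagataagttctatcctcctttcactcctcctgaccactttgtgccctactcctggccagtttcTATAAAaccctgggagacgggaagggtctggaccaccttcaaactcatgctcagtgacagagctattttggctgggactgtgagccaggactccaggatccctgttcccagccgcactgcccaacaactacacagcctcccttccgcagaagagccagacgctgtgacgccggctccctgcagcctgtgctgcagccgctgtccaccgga

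The capitals in *Pdgfa* are GC boxes (GGGCGG, read on the opposite strand), which begin 93 and 86 bases before the start and overlap no other motif searched. At least 1 GC box was held by 35.7% of the 32851 mouse promoters of this length. In *Pdgfra* the capitals are matches to TTGCNNAA, the core bound by C/EBP factors, beginning 118 bases before and 12 bases after the start, and 10.8% of all promoters hold this motif. The capitals in *Pdgfc* are a CArG box, the element read by serum response factor, 17 bases before the start (1.63% of all promoters). Those in *Pdgfd* are TATAAA, 160 bases before the start (13.6% of all promoters). None of the 4 regions shown held TTCNNNGAA, the core of a STAT site (8.30% of all promoters), TGANTCA of AP-1 (7.81%), GCGGGGGCG of EGR1 (2.91%) or CCAAT (37.4%). G and C made up 73.3% of the *Pdgfa* region, against 51.0% of *Pdgfra*, 55.0% of *Pdgfc*, 56.7% of *Pdgfd* and a median of 52.7% over all promoters. These matches describe letters only, and no binding was measured.

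In the table's coordinates, which fit the GRCm39 build named in the submitters' processing notes, *Pdgfa* (ENSMUSG00000025856) lies on chromosome 5 from 138961769 to 138983125, minus strand. *Pdgfra* (ENSMUSG00000029231) lies on the same chromosome from 75312953 to 75358876, plus strand. *Pdgfb* (ENSMUSG00000000489) is at 79880075 to 79899178 of chromosome 15, minus strand. *Pdgfc* (ENSMUSG00000028019) is at 80943723 to 81121347 of chromosome 3, plus strand, and *Pdgfd* (ENSMUSG00000032006) at 6168584 to 6378850 of chromosome 9, plus strand. *Pdgfrb* (ENSMUSG00000024620) is at 61178222 to 61218133 of chromosome 18, plus strand. All 6 are annotated as protein coding. Because the libraries kept no strand, an overlapping gene can share a member's reads. The only overlapping gene with more than a few reads was the long noncoding RNA *6330403L08Rik*, opposite to *Pdgfa*, with 91 to 734 counts a library. Genes that overlap *Pdgfb*, *Pdgfc*, *Pdgfd* and *Pdgfra* had at most 18 counts in any library, and no listed gene overlaps *Pdgfrb*.

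Levels of different genes were compared per gene length, as the FPKM the authors deposited (fragments scaled by gene length and by the size of the library). In the vehicle kidney, *Pdgfa* had the highest FPKM (6.54 ± 0.589, SD, n = 3), followed by *Pdgfrb* (5.77 ± 0.584), whose libraries overlapped with it. *Pdgfb* (5.11 ± 0.143) and *Pdgfd* (4.73 ± 0.216) came next and overlapped with each other, then *Pdgfc* (3.17 ± 0.293), and *Pdgfra* was lowest in FPKM (2.43 ± 0.184) with no overlap with *Pdgfc*. In IgGK the order of FPKM was *Pdgfrb* (13.7 ± 1.04), *Pdgfb* (13.5 ± 0.253), *Pdgfa* (12.1 ± 0.925), *Pdgfra* (8.34 ± 0.429), *Pdgfd* (5.78 ± 0.352) and *Pdgfc* (2.95 ± 0.353), and the only neighbours to overlap were *Pdgfrb* and *Pdgfb*. *Pdgfra*, below all other members in WTK, was thus above both *Pdgfd* and *Pdgfc* in IgGK. In LepK *Pdgfa* (11.1 ± 2.45 FPKM), *Pdgfb* (10.7 ± 1.53) and *Pdgfrb* (10.5 ± 1.53) overlapped, *Pdgfra* (4.70 ± 0.483) overlapped with *Pdgfd* (4.30 ± 1.01), and *Pdgfc* was lowest (2.87 ± 0.196).

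In bleomycin lung the FPKM were more unequal. *Pdgfra* (28.4 ± 3.20), *Pdgfb* (25.7 ± 6.60), *Pdgfrb* (24.9 ± 2.18) and *Pdgfa* (22.5 ± 4.16) overlapped in order in IgGL, while *Pdgfd* (2.51 ± 0.718) and *Pdgfc* (2.45 ± 0.678) were far below them and overlapped with each other. In LepL, *Pdgfb* (32.03 ± 1.52 FPKM) and *Pdgfa* (31.2 ± 2.59) stood above *Pdgfra* (15.5 ± 2.84) and *Pdgfrb* (13.8 ± 0.743), with no overlap between the ligand and the receptor pair. *Pdgfd* (3.73 ± 0.477) and *Pdgfc* (1.399 ± 0.272) no longer overlapped in LepL. *Pdgfc* and *Pdgfd* together carried much of the ligand FPKM in the vehicle kidney, where *Pdgfc* made up 15.4% to 17.3% and *Pdgfd* 22.7% to 25.1% of the sum of the 4 ligands. In lung the same shares were 1.59% to 5.65% for *Pdgfc* and 4.06% to 5.76% for *Pdgfd*. *Pdgfb* went from 25.6% to 26.7% of the ligand FPKM in WTK to 38.9% to 39.5% in IgGK and 45.5% to 50.02% in lung.

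Set side by side across the 5 groups, *Pdgfra* had the widest range of mean FPKM of the family as a fold, from 2.43 in WTK through 4.70 in LepK, 8.34 in IgGK and 15.5 in LepL to 28.4 in IgGL, with no overlap between neighbours. *Pdgfrb* followed the same order of groups, but its LepL and IgGK libraries overlapped. For *Pdgfa* the order of FPKM was WTK, LepK, IgGK, IgGL and LepL from low to high, and LepK overlapped with IgGK. *Pdgfb* had the same order, and its IgGL and LepL libraries overlapped. For *Pdgfc* the FPKM of WTK, IgGK, LepK and IgGL overlapped and LepL lay below them all. *Pdgfd* was highest in IgGK, and WTK, LepK, LepL and IgGL followed, each overlapping with the next. Kidney and lung were not compared by a test.

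**Figure D1:**
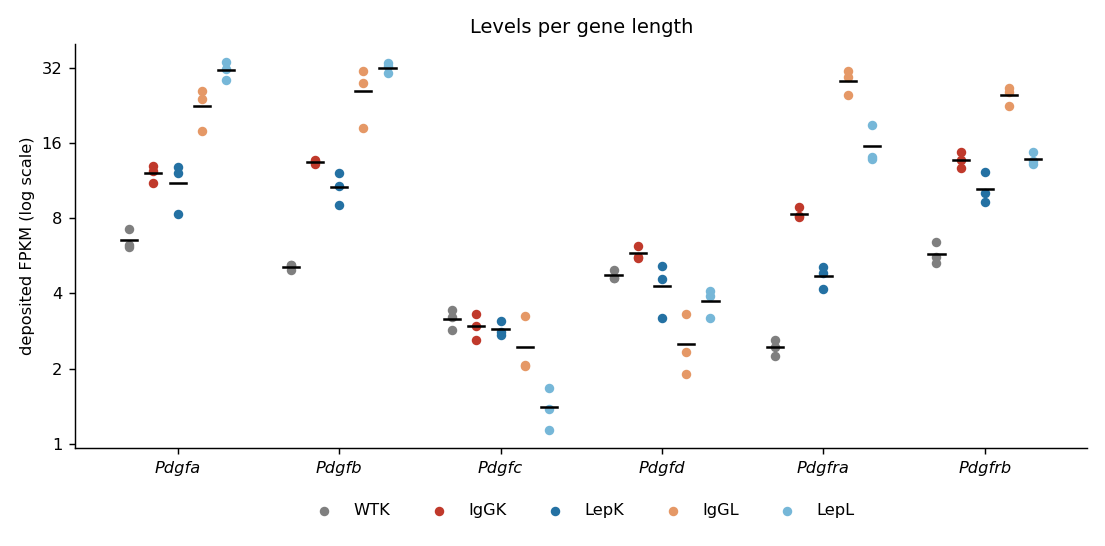
Deposited FPKM (log scale) of the 6 PDGF genes, with 1 point for each of the 3 libraries of WTK, IgGK, LepK, IgGL and LepL and a bar at the group mean. *Pdgfra* climbs from a mean of 2.43 in WTK to 28.4 in IgGL, while *Pdgfc* stays between 1.399 and 3.17.

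Total counts per library ranged from 25913969 to 38924788, and each PDGF gene had 267 to 16335 counts in every library, so all 6 passed edgeR's filter on low counts in every fit. Defining markers fitted the labelled organs, since the 5 tubule genes summed to 14089 to 14811 normalized CPM (counts scaled to a common library total) in WTK, 4350 to 5560 in IgGK and 7624 to 9069 in LepK, but to 30.0 to 159 in lung, and *Sftpc* and *Scgb1a1* were at 0 in every WTK and LepK library. IgGK replicates 1 and 2 stood apart by transcripts of the adrenal cortex, a gland beside the kidney: its 4 marker genes summed to 504 and 618 normalized CPM there, 14.3 in IgGK replicate 3 and 5.40 to 7.64 in the WTK and LepK libraries. The calls that use IgGK are therefore also given with replicate 3 as its single library, a choice made after seeing the data, in which that library is assumed to vary like the other groups.

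Does folic acid injury change the PDGF genes of the kidney? Both receptors, *Pdgfb* and *Pdgfa* rose in IgGK against WTK, whereas *Pdgfc* and *Pdgfd* were not called. The call needed a log2 fold change beyond 0.5 in either direction and, with Benjamini-Hochberg adjustment over all genes tested, a p under 0.05. That made 4 of 6 members called up and 0 called down, where 21.7% of all 19593 genes tested were called up and 15.6% called down. The members' median log2 fold change was 1.11, and that of all genes was 0.04. In bulk RNA, more cells of a type and more RNA per cell cannot be told apart.

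*Pdgfra*, the receptor typical of fibroblasts, had 29.7, 27.2 and 31.6 normalized CPM in the WTK libraries and 109.5, 101 and 100.4 in IgGK. Every IgGK library was above every WTK library, and the log2 fold change was 1.82 (standard error 0.09, adjusted p = 2.57e-08 from edgeR), a 3.52-fold difference and the largest of the family. *Pdgfrb*, the receptor of pericytes and mesangial cells, had 37.1, 35.1 and 42.5 normalized CPM in WTK and 92.7, 100.5 and 86.5 in IgGK. Its groups did not overlap either, and the log2 fold change was 1.29 (standard error 0.11, adjusted p = 8.36e-07 from edgeR), or 2.44-fold.

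Among the ligands, *Pdgfb*, the ligand that binds both receptors and recruits pericytes to vessels, had 26.1, 26.2 and 24.8 normalized CPM in WTK and 67.8, 70.6 and 70.0 in IgGK. The spread within each group was small and the groups lay far apart, at 1.43 on the log2 scale (standard error 0.09, adjusted p = 1.56e-07 from edgeR). *Pdgfa*, the ligand of the receptor encoded by *Pdgfra*, had 27.3, 23.6 and 23.1 normalized CPM in WTK and 42.7, 49.9 and 47.8 in IgGK. It rose without overlap by 0.93 on the log2 scale (standard error 0.14, adjusted p = 1.20e-04 from edgeR), the smallest of the called members.

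*Pdgfd*, a ligand activated by proteases and directed at the receptor encoded by *Pdgfrb*, had 17.6, 19.0 and 17.6 normalized CPM in WTK and 24.1, 21.7 and 22.0 in IgGK. All IgGK libraries were above all WTK libraries, but the log2 fold change, 0.33 with a standard error of 0.14, did not pass (adjusted p = 0.0723 from edgeR). *Pdgfc*, the other protease-activated ligand, had 19.9, 21.1 and 17.5 normalized CPM in WTK and 18.6, 16.4 and 20.9 in IgGK. These groups overlapped throughout, at -0.07 on the log2 scale (standard error 0.11, adjusted p = 0.648 from edgeR). With IgGK replicate 3 as the single IgGK library the 4 members called above had log2 fold changes of 1.77 (*Pdgfra*), 1.18 (*Pdgfrb*), 1.45 (*Pdgfb*) and 0.96 (*Pdgfa*). Scaling by library size alone, which moved the median of all genes to 0.48, gave *Pdgfc* a log2 fold change of 0.37 and *Pdgfd* a called one of 0.77.

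**Figure D2:**
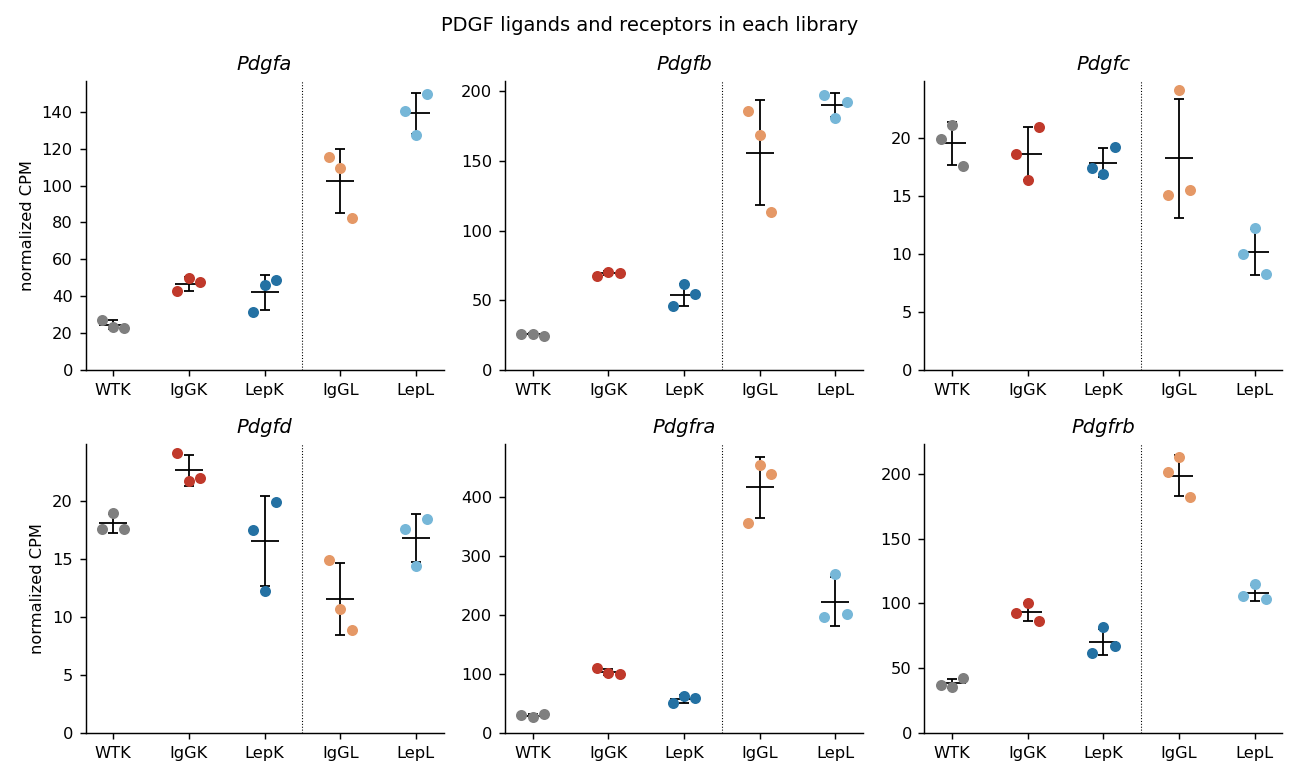
Normalized CPM of each PDGF gene in each of the 15 libraries, scaled within kidney and within lung (apart on either side of the dotted line), with the mean and SD of each group of 3. *Pdgfra* lies at 100.4 to 109.5 in IgGK and at 50.8 to 62.6 in LepK, and both receptors are lower in LepL than in IgGL without overlap.

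The comparison of LepK with IgGK asks what LepAb changed in the injured kidney, and it shares its IgGK libraries with the one before. *Pdgfra* fell, and it was the only member called, whereas *Pdgfb*, *Pdgfd* and *Pdgfrb* were lower with an adjusted p under 0.05 but a log2 fold change smaller than 0.5. This made 1 of 6 members called down and 0 called up, where 5.99% of all genes tested were called down and 4.38% up. By the adjusted p alone 4 of 6 were lower, where 9.57% of all genes were. The members' median log2 fold change was -0.39, beside -0.01 for all genes.

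*Pdgfra* had 50.8, 62.6 and 58.9 normalized CPM in the LepK libraries, all below the 100.4 to 109.5 of IgGK and above the 27.2 to 31.6 of WTK. The log2 fold change against IgGK was -0.85 (standard error 0.08, adjusted p = 1.15e-04 from edgeR), or 1.81-fold lower. It was called without each library in turn (-0.92 to -0.77) and with IgGK replicate 3 as the single IgGK library (-0.80, adjusted p = 0.0103 from edgeR).

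*Pdgfrb* had 61.7, 81.7 and 67.2 normalized CPM in LepK, each below the lowest IgGK library. Its log2 fold change was -0.41 (standard error 0.10, adjusted p = 0.0159 from edgeR). Leaving out LepK replicate 2, the highest of its group, made it a call at -0.53. The adjusted p rose to 0.0654 without IgGK replicate 2, 0.0638 without LepK replicate 1 and 0.0577 without LepK replicate 3.

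*Pdgfb* had 45.8, 61.5 and 54.9 normalized CPM in LepK, also without overlap with IgGK. Its log2 fold change was -0.36 (standard error 0.09, adjusted p = 0.0143 from edgeR), and the adjusted p stayed between 0.00312 and 0.0466 when each library was left out. *Pdgfd* had 17.5, 12.2 and 19.9 normalized CPM in LepK, with replicate 2 far below the others. Its log2 fold change was -0.45 (standard error 0.14, adjusted p = 0.0403 from edgeR). Without LepK replicate 3 it was called at -0.61. Leaving out any other IgGK or LepK library took the adjusted p to 0.0693 to 0.134.

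*Pdgfa* had 31.4, 46.0 and 49.0 normalized CPM in LepK, and replicate 1 alone lay outside the range of IgGK. The log2 fold change was -0.15 (standard error 0.14, adjusted p = 0.486 from edgeR), and 0.025 without LepK replicate 1. *Pdgfc* had 17.4, 16.9 and 19.2 normalized CPM in LepK, inside the range of IgGK, at -0.06 on the log2 scale (standard error 0.11, adjusted p = 0.737 from edgeR). With IgGK replicate 3 as the single IgGK library the adjusted p was 0.168 for *Pdgfb*, 0.355 for *Pdgfd* and 0.330 for *Pdgfrb*. Scaling by library size alone, with a median of all genes of -0.19, called *Pdgfb* at -0.54, *Pdgfd* at -0.63 and *Pdgfrb* at -0.59 as well as *Pdgfra*.

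How far did the LepK kidneys remain from vehicle kidneys? The 4 members called in IgGK were also called up in LepK against WTK, where 15.2% of all genes were called up, and 0 members were called down, where 7.3% of all genes were. This comparison shares its WTK libraries with the first and its LepK libraries with the second. The log2 fold changes were 0.96 for *Pdgfra* (standard error 0.09), 1.07 for *Pdgfb* (0.09), 0.88 for *Pdgfrb* (0.11) and 0.77 for *Pdgfa* (0.14), with adjusted p between 7.10e-06 and 0.00105 from edgeR. Beside the 1.82, 1.43, 1.29 and 0.93 of IgGK against WTK, the gap was widest for *Pdgfra*. *Pdgfd*, at -0.13 (adjusted p = 0.519 from edgeR), and *Pdgfc*, at -0.13 (adjusted p = 0.395 from edgeR), were not called.

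The ratio of *Pdgfra* to *Pdgfrb* counts within a library does not depend on how libraries are scaled. It was 0.800, 0.773 and 0.743 in WTK, 1.18, 1.01 and 1.16 in IgGK and 0.823, 0.767 and 0.876 in LepK. All IgGK libraries were above all WTK and LepK libraries, and WTK and LepK overlapped. On the log2 scale the ratio differed by 0.53 in IgGK against WTK and by -0.44 in LepK against IgGK (2-sided exact permutation p = 0.1 for each, adjusted p = 0.2 over the 4 comparisons). A p of 0.1 is the smallest that 3 libraries against 3 can give. LepK differed from WTK by 0.09 (exact permutation p = 0.3, adjusted p = 0.4). In lung the ratio was 1.77, 2.13 and 2.41 in IgGL and 1.86, 2.35 and 1.95 in LepL, which overlapped, with a log2 difference of -0.03 (exact permutation p = 0.9, adjusted p = 0.9). Counts grow with gene length, and per length the ratio of FPKM was 0.406 to 0.646 in the kidney libraries and 0.967 to 1.31 in the lung libraries.

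**Figure D3:**
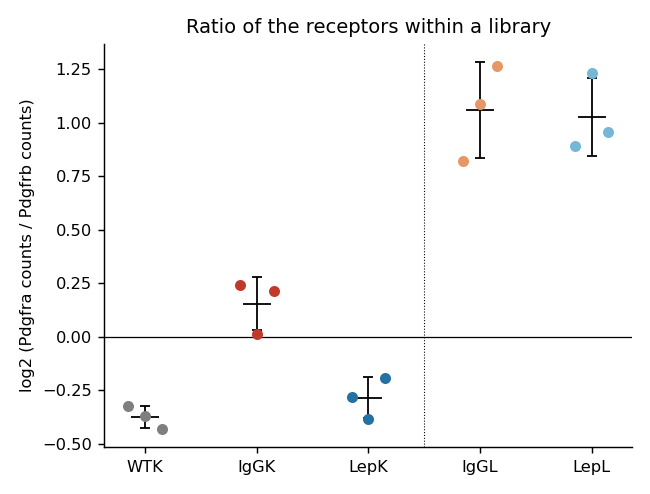
Log2 ratio of *Pdgfra* to *Pdgfrb* counts within each library, with the mean and SD of the 3 libraries of each group. The 3 IgGK libraries lie between 0.01 and 0.24, above all WTK and LepK libraries, and IgGL and LepL overlap between 0.82 and 1.27.

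In the bleomycin lung, LepL against IgGL, both receptors fell and no ligand was called. The 2 receptors made 2 of 6 members called down and 0 called up, where 2.36% of all 19617 genes tested were called down and 1.78% up. The members' median log2 fold change was -0.28, beside 0.00 for all genes, and the ligands *Pdgfa*, *Pdgfb* and *Pdgfd* had values of the opposite sign to the receptors.

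*Pdgfrb* had 201, 213 and 182 normalized CPM in IgGL and 106, 115 and 103 in LepL. Every LepL library was far below every IgGL library, and the log2 fold change was -0.88 (standard error 0.10, adjusted p = 0.0327 from edgeR), or 1.84-fold lower. *Pdgfra* had 357, 454 and 438 normalized CPM in IgGL and 196, 270.1 and 201 in LepL. It also fell without overlap, at -0.90 on the log2 scale (standard error 0.16, adjusted p = 0.0327 from edgeR), or 1.87-fold lower.

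Both receptors kept their direction in every fit, but the calls depended on single libraries. Without IgGL replicate 2 the adjusted p was 0.158 for both receptors, without LepL replicate 1 0.0706 for *Pdgfra* and 0.0550 for *Pdgfrb*, without LepL replicate 2 0.107 for both, and without LepL replicate 3 0.177 and 0.175. Without IgGL replicate 3 *Pdgfrb* was called and *Pdgfra* was not (adjusted p = 0.0548). The log2 fold changes in these fits and in the fit without IgGL replicate 1 were -1.06 to -0.82 for *Pdgfra* and -0.94 to -0.83 for *Pdgfrb*. Over all genes, 812 were called with the 6 libraries, 0 when IgGL replicate 2, or else replicate 2 or 3 of LepL, was left out, and 3539 without IgGL replicate 1.

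Of the ligands, *Pdgfc* had 15.1, 24.1 and 15.5 normalized CPM in IgGL and 10.02, 12.2 and 8.24 in LepL. It was lower in all LepL libraries than in any IgGL library, but its log2 fold change of -0.84 did not pass (standard error 0.23, adjusted p = 0.0659 from edgeR). DESeq2 called it (adjusted p = 0.00827), as did edgeR without IgGL replicate 1 (adjusted p = 0.0200), and without IgGL replicate 2, the highest library, its log2 fold change was -0.59. *Pdgfd* had 14.9, 10.7 and 8.88 normalized CPM in IgGL and 17.5, 14.4 and 18.4 in LepL, and 1 library of each group overlapped. Its log2 fold change was 0.54 (standard error 0.21, adjusted p = 0.139 from edgeR), opposite in sign to that of *Pdgfc*.

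*Pdgfa* had 115, 109 and 82.4 normalized CPM in IgGL and 140.5, 127 and 149 in LepL. All LepL libraries were higher, with a log2 fold change of 0.44 that did not pass (standard error 0.14, adjusted p = 0.0885 from edgeR). *Pdgfb* had 186, 168 and 113 normalized CPM in IgGL and 197, 181 and 192 in LepL, where IgGL replicate 3 stood below the other 5 libraries. Its log2 fold change was 0.29 (standard error 0.17, adjusted p = 0.312 from edgeR), and 0.10 without IgGL replicate 3. Without IgGL replicate 1, *Pdgfa* (0.53) and *Pdgfd* (0.78) were called as higher in LepL.

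The antibody's log2 fold change in kidney less that in lung was tested in a single model, called by the adjusted p alone. It held 12 libraries (IgGK, LepK, IgGL and LepL). The kidney and lung experiments differed at once in organ, injury, day of sampling and antibody course. A difference between them therefore cannot be assigned to the organ. In this edgeR fit 0 of 6 members were called, where 7.12% of 21488 genes were, and 5 of 6 had an unadjusted p under 0.05. The log2 differences were -0.97 for *Pdgfd* (standard error 0.28, adjusted p = 0.0564), -0.62 for *Pdgfb* (0.21, adjusted p = 0.0899) and -0.57 for *Pdgfa* (0.22, adjusted p = 0.125), ligands whose means were lower with LepAb in kidney and higher with it in lung. *Pdgfc* had a log2 difference of 0.81 (0.27, adjusted p = 0.0865) and *Pdgfrb* of 0.50 (0.15, adjusted p = 0.0603). *Pdgfra*, which fell in both organs, had a log2 difference of 0.08 (0.19, adjusted p = 0.844). DESeq2 called 3 of the 6, *Pdgfc*, *Pdgfd* and *Pdgfrb*, and edgeR called *Pdgfb*, *Pdgfc*, *Pdgfd* and *Pdgfrb* without IgGL replicate 1. Over all genes, DESeq2 also called more than the 1531 of the main fit. Without each library in turn that number varied widely, as given in the section on processing.

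**Figure D4:**
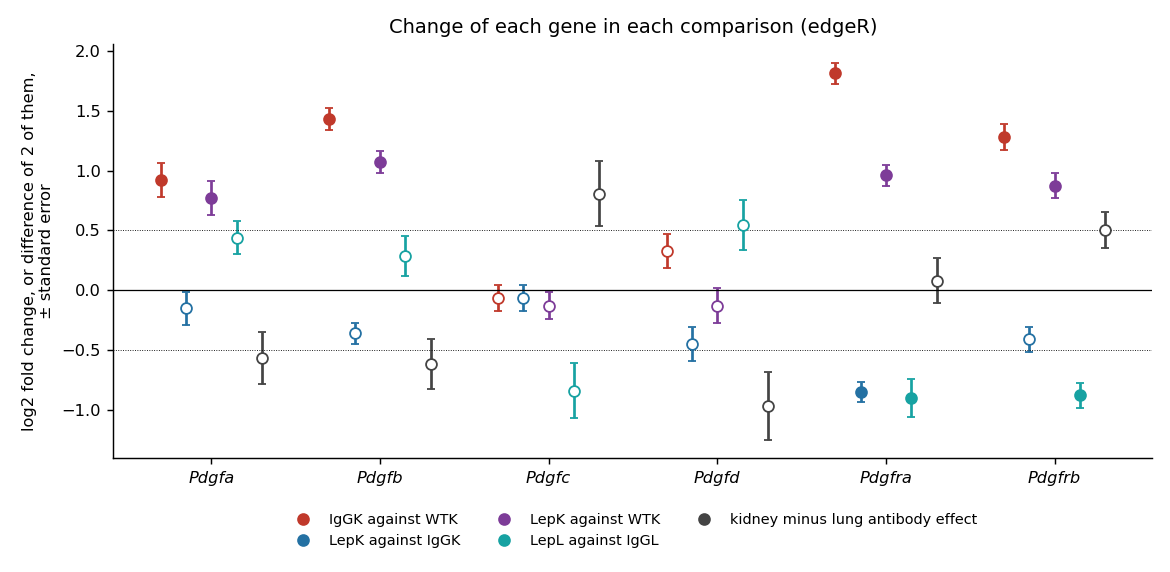
Log2 fold change of each PDGF gene with its standard error in the 4 comparisons, and the difference between the organs' antibody effects, where filled points passed the test and dotted lines mark 0.5 and -0.5. *Pdgfra* reaches 1.82 in IgGK against WTK and lies at -0.85 and -0.90 in the antibody comparisons of kidney and lung.

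The other genes of the pathway were taken from a list of 48: proteases that process the ligands, binding proteins and co-receptors, regulators that remove or dephosphorylate the receptors, adaptors and enzymes at the receptor, kinases downstream and immediate-early target genes. In IgGK against WTK 17 of the 47 tested rose (36.2%) and 5 fell (10.6%), beside 21.7% and 15.6% of all genes. All 5 binding proteins and co-receptors rose, led by *Pdgfrl*, which encodes a receptor-like protein without a kinase (log2 fold change 3.43), *A2m*, a plasma protease inhibitor that binds PDGF (2.30), and *Sparc*, a matrix protein that binds PDGF-B (2.02). *Pdgfrl* and *A2m* were near the floor, with at most 0.50 and 0.46 normalized CPM in WTK and 3.76 and 1.78 in IgGK. *Sparc* had 111.7 to 139.1 normalized CPM in WTK. Of the 5 immediate-early genes tested 4 rose, with *Fos* at 2.78, *Egr1* at 2.18 and *Junb* at 1.71. Among the processing proteases *Plat*, which activates PDGF-C, rose by 1.36 and *St14* by 0.83, while *Furin*, which cuts PDGF-A and PDGF-B inside the cell, fell by 0.78 on the log2 scale. Of 16 genes acting at the receptor 4 rose and 1 fell, with *Stat3* at 0.92 and *Pik3r1* at 0.69. Of 10 downstream kinases 2 rose and 2 fell. None of the 6 regulators that remove the receptors was called (log2 fold changes of -0.30 to 0.50). With IgGK replicate 3 as the single IgGK library the log2 fold changes were 3.50 for *Pdgfrl*, 1.71 for *A2m* and 1.82 for *Sparc*. They were 2.91 for *Fos*, 2.20 for *Egr1* and 1.60 for *Junb*, and the regulators *Cbl* and *Lrig1* were at 0.51 and -0.59. With 1 library in IgGK, that fit cannot decide whether the calls stand.

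In LepK against IgGK 0 genes of the pathway list rose and 6 of 47 fell (12.8%), beside 4.38% and 5.99% of all genes. With IgGK replicate 3 as the single IgGK library 1 fell, *Lrp1*. The 6 included the binding protein *Sparc* (-0.91), the co-receptors *Lrp1* (-0.82) and *Nrp1* (-0.50), the protease *Plat* (-0.51) and the immediate-early gene *Junb* (-0.50). The 16 genes at the receptor and the 6 regulators (-0.43 to -0.10) held no call. LepK against WTK had 11 genes up and 2 down (23.4% and 4.26%, beside 15.2% and 7.3% of all genes). Among its largest values by role were *Pdgfrl* (2.46), *Sparc* (1.12) and *Lrp1* (0.68), *Fos* (1.77), *Egr1* (1.57) and *Junb* (1.21), *Plat* (0.85), *St14* (0.71) and *Pcsk5* (-0.67), and *Stat3* (0.61), while the regulators (-0.40 to 0.18) held no call.

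In LepL against IgGL 0 of 48 rose and 5 fell (10.4%), beside 1.78% and 2.36% of all genes, and as with the receptors these calls were lost in the fits in which no gene of all was called. These were *A2m* (-2.09), the proteases *Pcsk5* (-1.42) and *Furin* (-0.94), which mature PDGF-A and PDGF-B, the immediate-early gene *Myc* (-1.12) and the co-receptor *Lrp1* (-1.02). Genes at the receptor, downstream kinases and regulators (-0.69 to 0.06) held no call. The difference between the organs was called for 4 genes of 48 in the positive and 2 in the negative direction, beside 7.12% of all genes in either, among them *Pcsk5* (1.53), *Furin* (1.30), *Myc* (1.15), *Map2k2* (0.58) and *Cbl* (-0.46), while the binding proteins and co-receptors (-0.42 to 0.68) held no call. With IgGK replicate 3 as the single IgGK library, *Pcsk5* was at 1.72, *Furin* at 1.27, *Myc* at 1.07, *Map2k2* at 0.57 and *Cbl* at -0.48. That fit, with 1 library in IgGK, cannot decide whether the calls stand.

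Most fibroblast and macrophage markers, like *Pdgfra*, rose in IgGK against WTK and fell in LepK against IgGK. Pericyte and endothelial markers held no call in the latter. Of all genes, 21.7% were called up and 15.6% down in IgGK against WTK. The shares were 4.38% and 5.99% in LepK against IgGK and 1.78% and 2.36% in LepL against IgGL. At these shares, no call among 7 or 6 markers does not set them apart from other genes. The part of these cells in the results was not tested. The 8 fibroblast markers, which include collagen genes, summed to 128 to 180 normalized CPM in WTK (179.6 at the highest), 1256 to 1442 in IgGK and 408 to 715 in LepK. In lung they summed to 7106 to 8081 in IgGL and 3208 to 4479 in LepL. Most of the lung sums came from *Col1a1*, *Col1a2* and *Col3a1*. These collagens, *Postn* and *Fap* were lower in LepL without overlap, while *Dcn*, *Lum* and *Dpt* overlapped between IgGL and LepL. All 8 rose in IgGK against WTK (7 with IgGK replicate 3 alone) and 7 fell in LepK against IgGK (2 with IgGK replicate 3 alone), while 3 fell in LepL against IgGL. The 7 pericyte and mesangial markers summed to 165 to 183 in WTK, 196 to 215 in IgGK and 205 to 212 in LepK. Of these, 2 rose and 1 fell in IgGK against WTK, 0 were called in LepK against IgGK, and in lung, where the sums were 965 to 982 in IgGL and 771 to 948 in LepL, 2 fell. The 5 smooth muscle and myofibroblast markers summed to 70.8 to 81.6 in WTK, 89.9 to 102 in IgGK, 101 to 111 in LepK, 388 to 516 in IgGL and 247 to 324 in LepL. Of the 4 tested in kidney, 2 rose and 1 fell in IgGK against WTK and 1 rose in LepK against IgGK, and of 5 tested in lung 1 fell. In the fit with IgGK replicate 3 alone 1 rose and 1 fell in the first and 1 rose in the second.

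The 6 endothelial markers, of a main source of PDGF-B, summed to 251 to 292 in WTK, 198 to 225 in IgGK and 234 to 265 in LepK, and 0 rose in IgGK against WTK while 2 fell. In lung they summed to 1668 to 2006 in IgGL and 1617 to 1949 in LepL, with 0 called. The 6 macrophage markers summed to 147 to 164 in WTK, 624 to 795 in IgGK and 306 to 400.1 in LepK, and all 6 rose in IgGK while 5 fell in LepK against IgGK (6 and 4 with IgGK replicate 3 alone). In lung they summed to 1287 to 1684 in IgGL and 733 to 1064 in LepL, with 1 called down. The 5 platelet markers summed to 16.8 to 18.3 in WTK, 16.9 to 19.7 in IgGK, 21.5 to 21.8 in LepK, 42.0 to 95.0 in IgGL and 68.6 to 84.7 in LepL, and *Gp1bb* was at 0 in all libraries. Of 3 platelet markers tested in kidney 2 rose in IgGK against WTK and 1 rose in LepK against IgGK, and of 4 tested in lung 2, *Ppbp* (log2 fold change 1.52) and *Gp9* (1.13), rose in LepL. *Pf4* and *Ppbp* were near the floor in WTK, at no more than 1.51 and 0.32 normalized CPM, and reached 6.40 and 0.78 in IgGK. Most of the kidney sums came from *Itga2b*, at 15.8 to 17.2 in WTK and 11.3 to 12.4 in IgGK. Of the 5 tubule markers 3 fell in IgGK against WTK and 3 rose in LepK against IgGK (3 and 2 with IgGK replicate 3 alone). Adipocyte markers summed to 21.2 to 66.8 in WTK, 129.6 to 208 in IgGK, 40.1 to 104.5 in LepK, 11.4 to 19.999 in IgGL and 34.1 to 47.0 in LepL. Of 4 tested in kidney, 3 rose and 1 fell in IgGK against WTK and 1 fell in LepK against IgGK. The log2 fold changes of all 4 in LepK against IgGK were -1.26 to -0.84. With IgGK replicate 3 as the single IgGK library they were -0.92 to -0.57, and that fit cannot decide whether the calls stand. Of 3 tested in lung, 2 rose in LepL. IgGK replicate 3, at 129.6, was the lowest of its group but above every WTK library, so the library used alone also differed in these markers. Lung epithelial markers summed to 15564 to 20734 in IgGL and 28148 to 44352 in LepL.

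**Figure D5:**
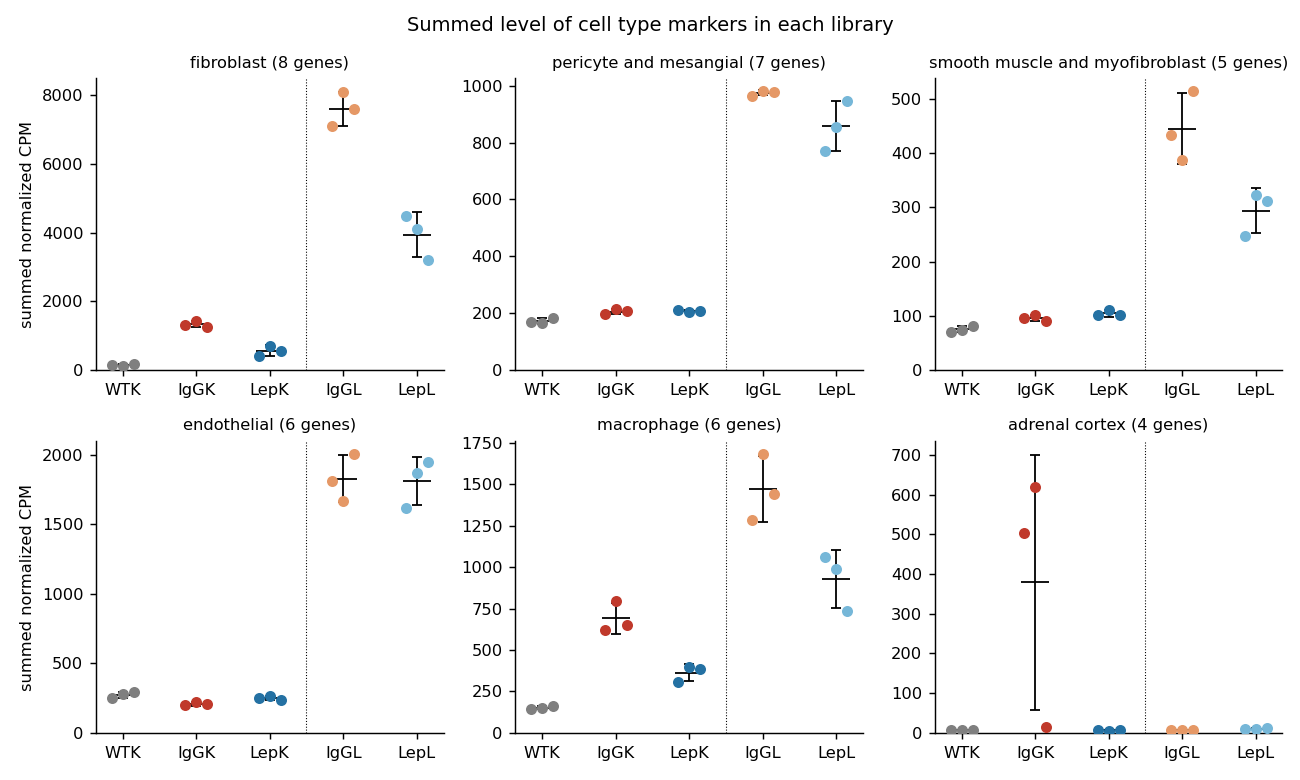
Summed normalized CPM of 6 lists of cell type markers in each library, with the mean and SD of each group of 3. Fibroblast markers lie at 1256 to 1442 in IgGK and 408 to 715 in LepK, pericyte and mesangial markers overlap between these groups, and adrenal cortex markers are high in IgGK replicates 1 and 2.

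On the chromosomes of the PDGF receptors lie 2 other receptor tyrosine kinases of the marker lists. *Csf1r*, the receptor of macrophage colony-stimulating factor, begins 15536 bases after the end of *Pdgfrb* on the same strand. Its log2 fold changes were 0.79 (called) in IgGK against WTK, -0.36 for LepK against IgGK and -0.16 for the lung comparison, beside 1.29, -0.41 and -0.88 for *Pdgfrb*. *Kdr*, an endothelial receptor 734610 bases from *Pdgfra*, had -1.20 (called), 0.31 and 0.48, each opposite in sign to *Pdgfra*.

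For each member, the genes whose log2 normalized CPM over the 15 libraries differed least from its own, after centring, were sought among 14518 protein-coding genes. *Pdgfra* was most like *Actn1*, *Bgn*, which encodes a small matrix proteoglycan, and *Lix1l*, with root mean square differences of 0.15, 0.15 and 0.19 on the log2 scale, beside its own variation of 1.25. Near *Pdgfrb* were *Plpp5* and *Fmnl3* (0.19 each, own variation 0.69). *Pdgfa* had *Arhgap28*, *Poglut3* and *Zfhx3* (0.10 to 0.16, own variation 0.81), and *Pdgfb* had *Fzd2*, *Plekhh2* and *Ltbp3* (0.13 to 0.14, own variation 0.95). *Pdgfc*, with *Slc6a6*, *Slc41a2* and *Mpg* (0.17 to 0.19), and *Pdgfd*, with *Tmco6*, *Sdr42e1* and *Net1* (0.19 to 0.20), varied least themselves (0.46 and 0.45). The 15 libraries span 2 organs, so likeness here rests largely on the difference between kidney and lung.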

How the data were processed

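RNA of 15 libraries was analysed, 3 in each of WTK, IgGK, LepK, IgGL and LepL, grouped by their labels. The authors' table, prepared by Novogene, holds whole-number read counts per gene, deposited without normalization, and FPKM, which the authors scaled by listed gene length and library size. The submitters' processing notes name GRCm39 and DESeq2. The aligner and counter are not given in the sources used here. Columns of the authors' own comparisons (fold changes and p-values) were not used, and 0 other per-library columns were left unmapped.

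Genes were filtered with filterByExpr (minimum count 10, minimum total count 15), scaled by TMM factors and tested with edgeR 4.0.16 quasi-likelihood models in R 4.3.3, on the 9 kidney libraries, the 6 lung libraries and, for the difference between organs, the 12 libraries of injured organs. Adjusted p-values are Benjamini-Hochberg over all genes tested. The standard error is the size of the log2 fold change over the square root of F. The receptor ratio used a pseudocount of 0.5 and an exact permutation test (scipy 1.17.1). The scripts were checked on simulated counts holding known changes. Precision rests mainly on the spread between the 3 libraries of each group. A PDGF gene had 267 to 16335 counts per library.

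All 6 members are named. Pathway genes are named where called, up to 3 by size of change in each role (some genes that met these rules are not reported here), and likeness used genes with a mean of at least 1 CPM and a pseudocount of 0.5. *Csf1r* and *Kdr* come from the marker lists and were set beside the receptors after their values were seen, and the 8 motifs were added later than these lists. The members and lists were chosen with earlier results of these data known. Alternatives were RLE, upper-quartile and library-size scaling, DESeq2 1.42.0, other filters, fits of fewer or more groups, the replicate number as a block and leaving out each library.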

Additional observations from a re-analysis of the deposited data

Results flagged for a closer look

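No member of the family met a rule for a closer look. The antibody effect differed between kidney and lung, by edgeR's test of the difference itself (adjusted p under 0.05), for 6 of the 48 pathway genes. Of these, 5 are given here. Over all genes 7.12% were called, a share that varied widely without each library in turn. Kidney and lung also differed in injury, day of sampling and antibody course, so these differences cannot be assigned to the organ. The calls use IgGK replicates 1 and 2, which held adrenal cortex transcripts. In a fit with replicate 3, nearly free of them, as the single IgGK library, the differences of these 5 kept their direction. They were 1.72 for *Pcsk5*, 1.27 for *Furin*, 1.07 for *Myc*, 0.57 for *Map2k2* and -0.48 for *Cbl* on the log2 scale. With 1 library in IgGK, that fit cannot decide whether the calls stand. *Pcsk5*, a convertase that matures PDGF ligands, differed by 1.53 on the log2 scale (adjusted p = 0.00895), with 0.08 in kidney and -1.42 in lung. *Furin* differed by 1.30 (adjusted p = 0.0107), with 0.32 in kidney and -0.94 in lung. Within IgGL, *Furin* ran from 235 to 399 and *Pcsk5* from 58.0 to 103 normalized CPM, above every LepL library. *Myc* differed by 1.15 (adjusted p = 0.0312), with 0.00 in kidney and -1.12 in lung. *Map2k2* differed by 0.58 (adjusted p = 0.0263), with 0.24 in kidney and -0.31 in lung. *Cbl*, whose product marks activated receptors for removal, differed by -0.46 (adjusted p = 0.0312), with -0.43 in kidney and 0.06 in lung.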

How the results depend on the processing

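The 4 members called in IgGK against WTK and the same 4 in LepK against WTK were called under each alternative run, and scaling by library size added *Pdgfd* to the first. Of the 171 alternative values of the 11 called log2 fold changes, 160 kept direction and call, 11 lost the call (both receptors in LepL against IgGL) and 0 reversed. Of 327 values of the 19 that were not called, 30 became calls and 10 changed sign.

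In LepK against IgGK the count of 1 became 4 with library-size scaling and 4 by the adjusted p alone, and 1 to 2 without each library in turn. In LepL against IgGL the count of 2 was 0 to 5 without each library. For the difference between organs the count of 0 became 2 with library-size scaling, 4 with no filter on low counts, 1 with a mean of at least 1 CPM and 3 with DESeq2, and was 0 to 4 without each library. It stayed at 0 with IgGK replicate 3 as the single IgGK library, an alternative added after seeing the data, in which only 4 genes of all were called.

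Signs changed where values were near 0. *Pdgfc* in IgGK against WTK was 0.37 with library-size scaling, 0.10 with IgGK replicate 3 alone and -0.15 to 0.026 without each library. Library-size scaling also gave *Pdgfc* 0.13 and *Pdgfd* 0.13 in LepK against WTK and *Pdgfra* -0.16 between the organs. Without each library, *Pdgfa* (-0.28 to 0.025) and *Pdgfc* (-0.15 to 0.035) in LepK against IgGK, *Pdgfd* in LepK against WTK (-0.28 to 0.050), *Pdgfra* between the organs (-0.0059 to 0.24) and the lung receptor ratio (-0.15 to 0.071) crossed 0. The cause was not tested. The kidney ratios kept their sign.

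With library-size scaling the all-gene median became 0.48 for IgGK against WTK, -0.19 in LepK against IgGK, 0.29 in LepK against WTK and -0.25 between the organs. It moved the share of calls that were up from 58.2% to 86.9%, 42.2% to 15.7%, 67.6% to 90.3% and 49.2% to 11.2%. Calls over all genes went from 2032 to 4025 by the adjusted p alone, 1303 without LepK replicate 1, 1322 without IgGK replicate 2 and 664 with IgGK replicate 3 alone in LepK against IgGK, and from 4415 to 7569 by the adjusted p alone in LepK against WTK. In lung the 812 became 2350 with DESeq2, 2688 with no filter and 2067 in the fit of 12 libraries. Between the organs the 1531 became 2978 with DESeq2, 2659 with no filter and 352 to 3763 without each library.

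Deviations of same-numbered libraries correlated at -0.045 to 0.21 in kidney and -0.096 to 0.11 in lung. Libraries of different number were not compared in this way, so whether replicate numbers pair the libraries was not decided. With the replicate number as a block the lung count was 0, with 4 genes called over all, the count between the organs was 1 (*Pdgfrb*), with 1006 genes called over all, and no other count of members changed.

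The design's 3 libraries a group limit the receptor ratio to a smallest p of 0.1.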
